A study of Mus musculus with 6 samples.

Results

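The E2F transcription factors, their DP partner and the retinoblastoma pocket proteins were followed through 10 genes in the established mouse macrophage line RAW264.7. Treated cells had received 50 µg/ml of AEPS, a root polysaccharide from Actinidia eriantha (a kiwifruit species), for 4 h. The control cells were kept for 4 h in DMEM, the culture medium, without it. The genes were E2f1, E2f2, E2f3, E2f4, E2f6, E2f8, Tfdp1, Rb1, Rbl1 and Rbl2. Their probes were taken by the gene symbol, which only the scanner files labelled replicate 3 give, and matched to the other files by probe name. The 10 genes are called members below. The members were 10 of 14605 named genes tested, and they were read by 13 of 55681 probes. All 13 probes were well above background on every array, so no member was lost to the filter on dim probes. RNA of 3 samples per group was hybridised to 1-colour Agilent arrays. Neither the purity of the polysaccharide nor the use of separate cultures is stated, so p-values measure only how these samples vary, which may be technical variation.

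E2F proteins bind DNA ahead of genes for DNA synthesis and cell division, most of them as pairs with a DP protein. E2F1, E2F2 and E2F3 switch such genes on and are held in check by RB1 until cyclin-dependent kinases phosphorylate it. E2F4 acts mainly as a repressor with the pocket proteins encoded by Rbl1 and Rbl2, E2F6 represses through polycomb proteins without a pocket protein, and E2F8, like E2F7, represses without a DP partner. In macrophages, microbial stimuli and growth factors act in opposite ways on the cell cycle, and this family sits at the step where a cell commits to DNA synthesis.

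The scanner files of replicates 1 and 2 were identical in each group and were counted as 1 sample, which left 2 distinct AEPS arrays and 2 distinct control arrays. They lay on 2 slides, each with 1 array of each group. On the AEPS arrays 55.4% to 56.7% of spots were well above background, against 55.4% to 58.7% on the control arrays, and precision is limited by how few arrays there are. The authors' table of processed values holds 3 columns per group, of which the replicate 3 column matches no scanner file analysed here. The slide 2 arrays come from scanner files labelled replicate 3, yet they match the replicate 2 columns of the table. The labels of scanner files and columns thus disagree. All 9 macrophage markers (Adgre1, Aif1, Cd68, Csf1r, Fcgr1, Itgam, Lyz2, Ptprc and Spi1) were above background on every array. So were 1 of 3 T cell markers (Cd3e), 1 of 3 B cell markers (Cd79a), 1 of 4 fibroblast markers (Col1a2) and 0 of 4 epithelial markers.

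Promoter windows of E2f2 and E2f3, activator genes whose measured changes had opposite signs, are shown first, since both hold a match to the E2F motif. The windows are from RefSeq on GRCm38.p6 and reach from 250 bases before to 50 bases after an annotated start. Capitals mark the E2F match, read 5′ to 3′ on the strand of the gene. E2f2 lies on the plus strand and its window is chr4:136172024-136172323. E2f3 lies on the minus strand and its window is chr13:29986014-29986313.
E2f2: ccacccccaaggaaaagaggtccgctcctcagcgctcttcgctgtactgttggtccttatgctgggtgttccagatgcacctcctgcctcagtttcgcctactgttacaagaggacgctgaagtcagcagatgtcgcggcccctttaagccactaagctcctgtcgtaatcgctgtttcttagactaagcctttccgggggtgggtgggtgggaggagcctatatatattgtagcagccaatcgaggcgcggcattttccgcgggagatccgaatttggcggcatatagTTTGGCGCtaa
E2f3: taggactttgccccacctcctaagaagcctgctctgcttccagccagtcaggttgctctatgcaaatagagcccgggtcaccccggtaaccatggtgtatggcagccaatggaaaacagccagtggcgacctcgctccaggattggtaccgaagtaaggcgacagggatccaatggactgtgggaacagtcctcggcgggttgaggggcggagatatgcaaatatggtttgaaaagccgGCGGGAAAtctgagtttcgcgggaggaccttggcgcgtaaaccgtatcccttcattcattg

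The motif search took the letters TTTGGCGC, TTTCCCGC, TTTGCCGC and TTTCGCGC on both strands. In E2f2 the match was TTTGGCGC on the strand of the gene, 39 to 46 bases after the start. In E2f3 it was TTTCCCGC on the opposite strand, ending 4 bases before the start. Of 32851 promoter windows, 2.26% held a match. Among the members, 8 of 10 genes had 11 windows, and matches also lay in the window of Rbl1 and in both overlapping windows of Tfdp1. None lay in the windows of E2f1, E2f6, E2f8 and Rbl2 or in the second window of E2f2 and of E2f3, which says only that these letters are not in those windows. E2f4 and Rb1 were not analysed here. The 4 genes with a match thus included 1 that fell (E2f2), and 3 that did not pass the threshold in the comparison of the scanner arrays (E2f3, Rbl1 and Tfdp1).

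The comparison asked which genes differed after 4 h of AEPS, and for this family whether activators, repressors, partner and pocket proteins moved alike. E2f1 and E2f2 fell with AEPS, and the other 8 members did not pass the threshold. Levels are log2 of the processed signal minus the 75th percentile of the array, so every change is relative to the bulk of the array. By limma with Benjamini-Hochberg adjustment over all features, at an adjusted p of 0.05, 2 of 10 members were called. Over all named genes 8.71% were called, 3.46% as lower and 5.25% as higher. The median log2 change was -0.19 over the 10 members and -0.10 over all 14605 genes. In RNA from bulk cells, a lower level in every cell and a lower level in some of the cells cannot be told apart.

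**Figure D1:**
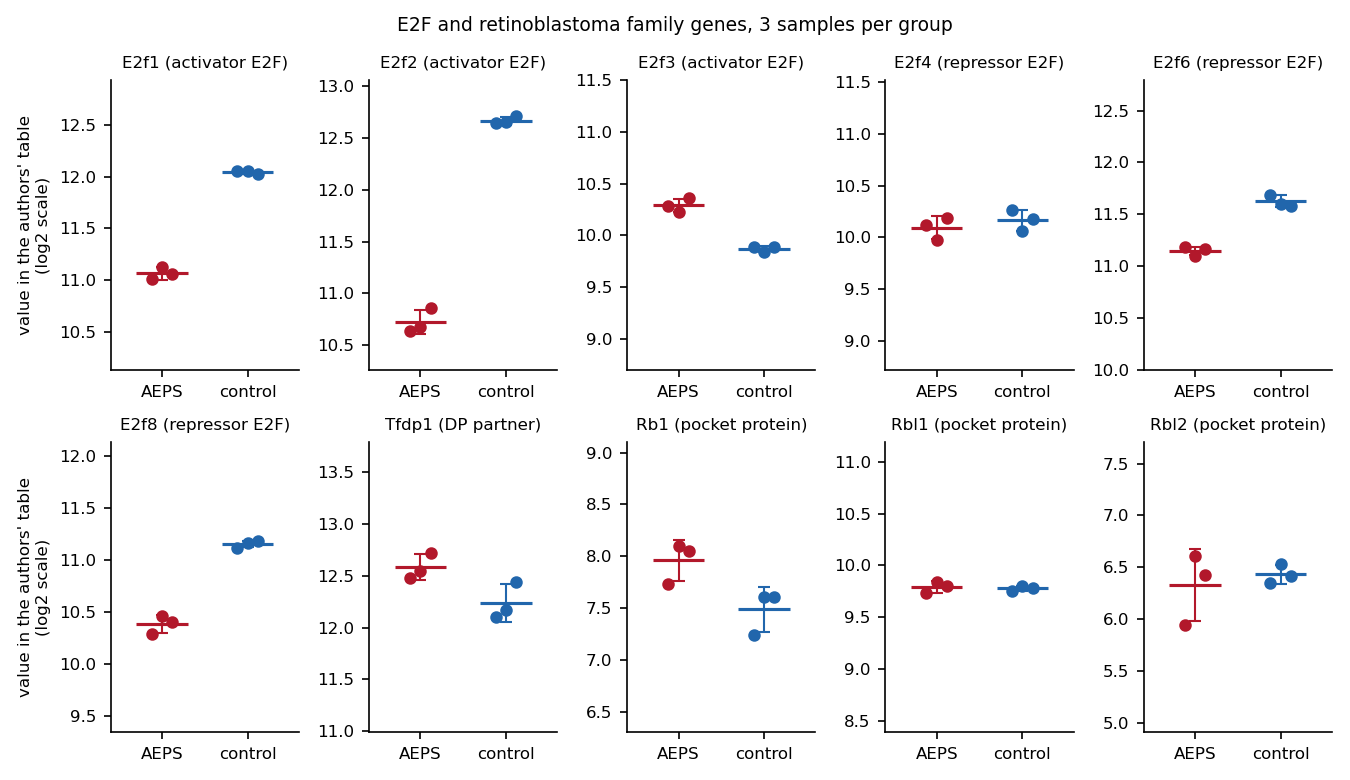
Value of each member in the authors' table (y axis, log2 scale, each panel spanning the same height) for the 3 AEPS samples (red, left) and the 3 control samples (blue, right), with the mean (bar) and SD (whisker). The 3 AEPS samples lie below all 3 control samples for E2f1, E2f2, E2f6 and E2f8 and above them for E2f3, Tfdp1 and Rb1. The groups overlap for E2f4, Rbl1 and Rbl2. Over all named genes, the groups do not overlap for 57%.

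Of the activators, E2f2 had the log2 change of largest size, also among all 10 members. Its probe (chr4:135750562-135750621 on mm9, the build of the file headers, plus strand, with no gene model of that build used here) had normalised log2 levels of 2.09 and 2.25 on the AEPS arrays, against 4.17 and 4.33 on the control arrays. The groups were far apart on both slides, with differences of -2.08 on slide 1 and -2.08 on slide 2. The log2 change was -2.08 ± 0.15 (SE), or 0.237 of the control level, with an adjusted p of 0.0205 by limma. Scaled to 8 spike-in probes instead of the 75th percentile, it was -1.47 (adjusted p 0.0343 by limma). In the authors' table E2f2 stood at 10.64, 10.68 and 10.86 with AEPS, against 12.64, 12.65 and 12.71 in control. The highest AEPS sample was thus well under the lowest control sample, and the mean difference of -1.94 had an adjusted p of 0.000171 by limma on that table. Leaving out single arrays kept the change between -2.16 and -2.0, while the adjusted p became 0.058 without the AEPS array of slide 2, 0.0751 without the control array of slide 1 and 0.104 without the control array of slide 2.

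E2f1, which drives genes of programmed cell death besides genes of DNA synthesis also fell. Its probe (chr2:154385798-154385857 on mm9, minus strand) had levels of 2.47 and 2.72 on the AEPS arrays, against 3.54 and 3.67 on the control arrays. Both AEPS arrays were below both control arrays. The log2 change was -1.01 ± 0.16 (SE), or 0.497 of control, with an adjusted p of 0.04935 by limma, close to the threshold. In the authors' table its values were 11.01, 11.13 and 11.06 with AEPS, against 12.05, 12.05 and 12.02 in control. That gap was many times the SD of 0.060 and 0.017 in the AEPS and control samples, and limma on the table gave an adjusted p of 0.000527. Under spike-in scaling, which moved the median of all genes to 0.50, the change was -0.40 and the adjusted p 0.234. Leaving out any 1 array gave an adjusted p of 0.129 to 0.281 at changes of -1.13 to -0.88.

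E2f3 had the opposite sign. Its brighter probe (chr13:29998480-29998539 on mm9, minus strand) had levels of 1.73 and 1.79 on the AEPS arrays, against 1.29 and 1.34 on the control arrays. The groups did not overlap, and the log2 change was 0.44 ± 0.13 (SE), with an adjusted p of 0.115 by limma. With the slide as a block, which pairs the arrays hybridised together, the adjusted p was 0.0454. In the authors' table it read 10.28, 10.23 and 10.36 with AEPS, against 9.89, 9.84 and 9.89 in control, a difference of 0.42 with an adjusted p of 0.00772 by limma. Under spike-in scaling the change was 1.04, with an adjusted p of 0.0566.

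A second E2f3 probe allowed the gene to be read at another place. Its 60 bases map across 3387 bases of the genome, chr13:30005369-30008755 on mm9 (minus strand), so that it spans a splice junction of the transcript. It is shown because it gave a smaller difference than the brighter probe.
E2f3 splice-spanning probe: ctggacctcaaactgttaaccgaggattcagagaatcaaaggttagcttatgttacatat
On this probe the levels were -0.24 and -0.18 with AEPS, against -0.46 and -0.29 in control. The log2 change was 0.17 ± 0.14 (SE), with an adjusted p of 0.444 by limma with every probe fitted on its own. Its 3 table values overlapped between groups, at 8.29, 8.41 and 8.65 with AEPS, against 8.04, 8.27 and 8.51 in control. The difference between the 2 probes was not tested.

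**Figure D2:**
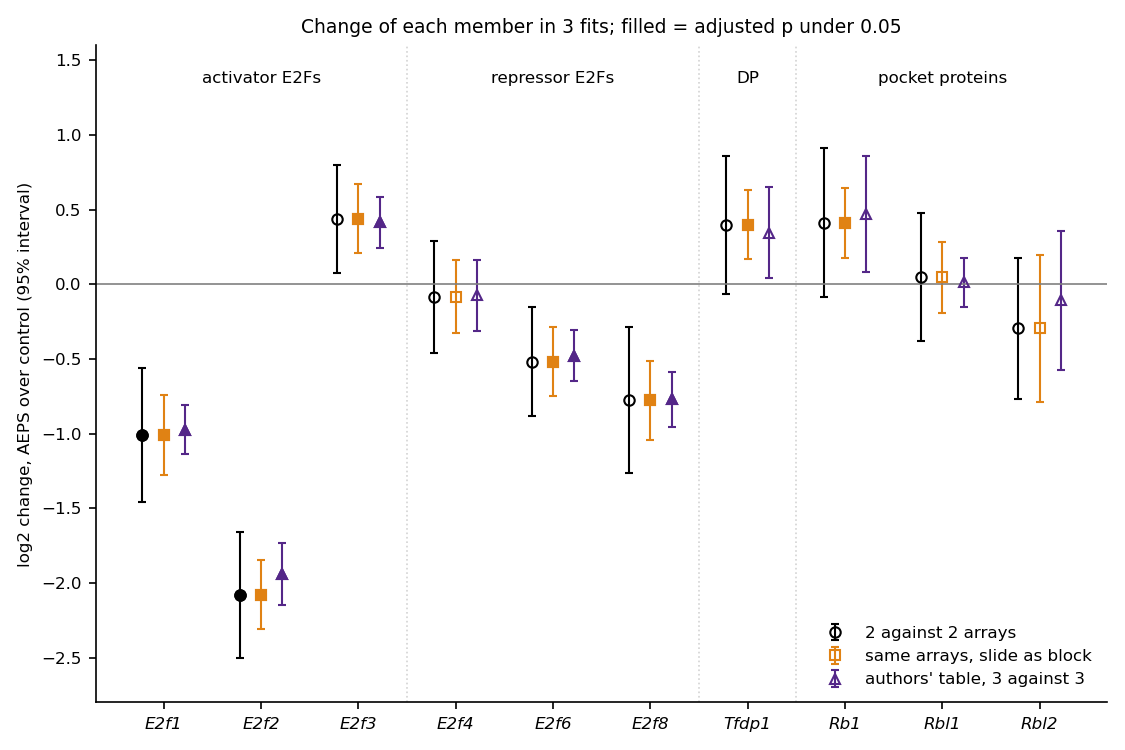
Log2 change of each member, AEPS over control (y axis), with its 95% interval, from the 2 against 2 scanner arrays (black circles), the same arrays with the slide as a block (orange squares) and the authors' table with 3 samples per group (purple triangles); filled symbols have an adjusted p under 0.05. E2f1 and E2f2 are filled in all 3 fits, E2f3, E2f6 and E2f8 with the block and in the table, Tfdp1 and Rb1 with the block only, and E2f4, Rbl1 and Rbl2 in none.

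Of the repressors, none passed in the comparison without a block, and all 3 had negative log2 changes, with a median of -0.52. E2f8, an atypical E2F that binds DNA without a DP partner, had levels of 1.74 and 2.03 on the AEPS arrays, against 2.57 and 2.75 on the control arrays. The groups were apart, and the log2 change was -0.78 ± 0.18 (SE), with an adjusted p of 0.0775 by limma, and 0.0351 with the slide as a block. The authors' table gave 10.29, 10.46 and 10.40 with AEPS, against 11.12, 11.16 and 11.18 in control, and an adjusted p of 0.00146 by limma. It was also called under quantile normalization (adjusted p 0.0417) and with a model-based background correction (adjusted p 0.0321). Under spike-in scaling the change of E2f8 was -0.17, with an adjusted p of 0.603.

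E2f6, the polycomb-linked repressor, had levels of 2.64 and 2.70 on the AEPS arrays, against 3.16 and 3.21 on the control arrays. These did not overlap, and the differences on the slides, -0.52 and -0.51, were nearly the same. The log2 change of -0.52 ± 0.13 (SE) had an adjusted p of 0.0905 by limma, and 0.0397 with the block. Table values were 11.18, 11.10 and 11.16 with AEPS, against 11.69, 11.60 and 11.58 in control, with an adjusted p of 0.00504 by limma. Under spike-in scaling the sign of E2f6 turned, to 0.09.

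E2f4, the main partner of the pocket proteins in resting cells, had levels of 1.56 and 1.52 with AEPS, against 1.68 and 1.56 in control. Its log2 change was -0.08, with a 95% interval of -0.46 to 0.29 and an adjusted p of 0.699 by limma. In the table its groups overlapped, at 10.12, 9.97 and 10.19 with AEPS, against 10.26, 10.06 and 10.18 in control. A change larger than the interval was thus not seen, but the interval does not show that the level was equal. Under spike-in scaling its change was 0.52, with an adjusted p of 0.277.

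Tfdp1 encodes DP1, the dimer partner that lets E2F1 to E2F6 bind DNA. Its brighter probe had levels of 4.00 and 4.20 with AEPS, against 3.59 and 3.81 in control. The groups were apart, and the log2 change was 0.40 ± 0.17 (SE), with an adjusted p of 0.192 by limma, and 0.0495 with the block. A second probe gave 0.39 ± 0.16 (SE), nearly the same change. In the table the brighter probe read 12.48, 12.55 and 12.72 with AEPS, against 12.10, 12.17 and 12.44 in control. These values did not overlap, with an adjusted p of 0.0811 by limma, and 0.0133 with the replicate block.

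Of the pocket proteins, Rb1, the gene of the retinoblastoma protein, is read by a probe printed at 10 spots on each array. The spots ranged from 294.1 to 370.8 and from 325.5 to 361 signal units on the AEPS arrays, against 151.6 to 201.8 and 133.5 to 163.4 on the control arrays. Before scaling, every AEPS spot was thus brighter than every control spot, on arrays whose 75th percentiles were 575 and 488 units with AEPS, against 401 and 287 in control. After scaling the log2 change was 0.41 ± 0.18 (SE), with an adjusted p of 0.204 by limma, and 0.0483 with the block. Table values were 7.73, 8.10 and 8.05 with AEPS, against 7.24, 7.61 and 7.61 in control, with an adjusted p of 0.0678 by limma, and 0.00617 with the replicate block. Each AEPS sample was above the control of the same number by a similar amount, while both replicate 1 samples were low in their groups.

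Rbl1, the gene of p107, has probes for different transcripts, which are set out by their first 30 of 60 bases. The probe matched to the first transcript lies at chr2:156972143-156972202 and that matched to the second at chr2:157000761-157000820, both on mm9 and on the minus strand.
Rbl1 first transcript probe: acactggaggtttagccttctgaagaatca
Rbl1 second transcript probe: ccgagaggaattggaggaggggaaaacttg
The first probe had levels of 1.17 and 1.37 with AEPS, against 1.15 and 1.30 in control, and a log2 change of 0.05 with a 95% interval of -0.38 to 0.48. Under spike-in scaling it was 0.65. Its table values overlapped, at 9.73, 9.84 and 9.80 with AEPS, against 9.75, 9.80 and 9.78 in control. The second probe had a log2 change of 0.24 ± 0.18 (SE), with an adjusted p of 0.402 by limma. Its differences on the slides were uneven, at 0.45 and 0.02. Neither Rbl1 probe passed the threshold.

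Rbl2, the gene of p130, was read by a dim probe, with processed signals of 104.3 and 109.9 units with AEPS, against 101.6 and 69.5 in control. Its log2 change was -0.29 ± 0.17 (SE), with an adjusted p of 0.303 by limma. The slides differed, at -0.48 and -0.11, and the table values overlapped, at 5.94, 6.61 and 6.43 with AEPS, against 6.35, 6.53 and 6.42 in control. Under spike-in scaling the sign turned, to 0.31, with an adjusted p of 0.432.

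**Figure D3:**
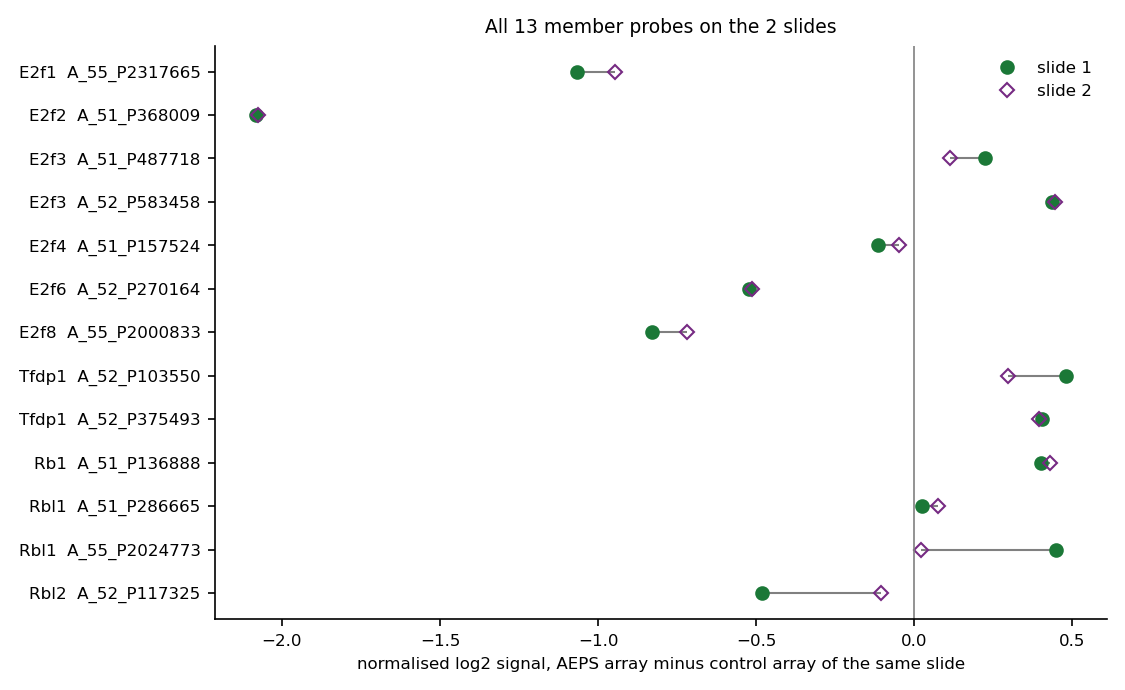
Difference in normalised log2 signal between the AEPS and the control array of the same slide (x axis), for slide 1 (filled circles) and slide 2 (open diamonds), for each of the 13 member probes (rows). The slides nearly coincide for E2f2, E2f6 and the brighter E2f3 and Tfdp1 probes and lie farthest apart for the second Rbl1 probe, at 0.45 and 0.02, and for Rbl2, at -0.48 and -0.11.

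By role, 2 of 3 activators passed as lower, and none of the 3 repressors, the DP partner or the 3 pocket proteins passed. With the slide as a block 7 of 10 members passed, where 33.8% of all named genes passed. Of the members, 4 passed as lower (E2f1, E2f2, E2f6 and E2f8) and 3 as higher (E2f3, Tfdp1 and Rb1), against 17.2% and 16.6% of all named genes. The 3 higher calls were close to the threshold (adjusted p 0.0454, 0.0495 and 0.0483 by limma). With 4 arrays the block leaves little to estimate a gene's own spread. The SE was 0.064 alike for E2f2, E2f3, E2f6, Tfdp1 and Rb1, so it leaned on the spread pooled over all genes. By limma on the values deposited by the authors 5 of 10 passed, 4 as lower and 1 as higher, where 41.4% of all named genes passed. In that table the 3 AEPS values did not overlap the 3 control values for 7 of 10 members, and for 57% of all named genes. Without the table's replicate 3 columns 3 of 10 members passed, namely E2f1, E2f2 and E2f8, where 1941 of 14605 named genes passed. With no filter on dim probes none of the 10 passed on the scanner arrays, nor did any of 22763 named genes. Under spike-in scaling E2f2 passed as lower, and Tfdp1 (adjusted p 0.0446) and Rb1 (adjusted p 0.0425) passed as higher. That scaling called 91 of 14605 named genes as lower and 2637 as higher. The tests of the table and of the scanner arrays share arrays and are not independent of each other.

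E2f5, E2f7 and Tfdp2, the other E2F and DP genes listed, did not pass in the comparison of the scanner arrays without a block. There the brightest probe stood for each gene. E2f7, the atypical partner of E2f8, had levels of -0.17 and 0.06 with AEPS, against 0.90 and 1.15 in control. Its log2 change of -1.09 ± 0.18 (SE) had an adjusted p of 0.05043 by limma, just above the threshold. With the slide as a block the adjusted p was 0.0336. With each probe fitted on its own, this probe had an adjusted p of 0.0444 by limma. A second, dimmer E2f7 probe had a change of -0.42 in that fit, with an adjusted p of 0.2135. Under spike-in scaling the change of E2f7 was -0.48, with an adjusted p of 0.149. E2f5, a repressor that works with the pocket proteins, had a log2 change of 0.97 and an adjusted p of 0.0614 by limma, and 0.0389 with the block. Tfdp2, which encodes the second DP protein, had -0.36 and 0.285 without the block and passed in neither fit. These 3 genes and the 10 members together held signs in both directions, among the repressors as well.

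Of 108 tested genes of the partner and target lists, 9 passed (8.33%, against 8.71% of all named genes), and 40 passed with the slide as a block (37%, against 33.8%). The genes that act on the pocket proteins moved unevenly. Of 8 tested G1 cyclins and kinases, 1 rose and 1 fell, as 5.25% and 3.46% of all named genes did. The median log2 change of the 8 was -0.31. Ccne1, the cyclin E that drives entry into DNA synthesis and is itself an E2F target, fell by 1.41 ± 0.18 (SE), with signals of 4764.3 and 4794.3 with AEPS, against 8845.1 and 7490.4 in control, and an adjusted p of 0.0362 by limma. Ccnd2, a cyclin D that starts the phosphorylation of RB1, rose by 1.96 ± 0.16, with signals of 156.5 and 143.7 with AEPS, against 26.8 and 22.7 in control, and an adjusted p of 0.0217. With the model-based background correction its change was 0.66 and its adjusted p 0.0632, so the call for this dim probe did not hold there. Cdk4, the kinase partner of cyclin D and the brightest gene of this list that did not pass, had a log2 change of -0.31. With the block 1 of the 8 passed as higher and 3 as lower, where 16.6% and 17.2% of all named genes did.

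Of 4 tested CDK inhibitors, 1 passed, where 8.71% of all named genes did. Cdkn2c, an inhibitor of the cyclin D kinases, fell by 0.93 ± 0.13 (SE), with an adjusted p of 0.0421 by limma. Cdkn1a, the p21 inhibitor and the brightest of those that did not pass, had a log2 change of 0.82, with an adjusted p of 0.0826 by limma, and 0.0341 with the block. With the block all 4 passed, 1 as higher and 3 as lower, where 16.6% and 17.2% of all named genes did. The 15 genes of corepressors that pocket proteins recruit had a median log2 change of 0.05, none passed, and the brightest, Smarca4, had 0.05. With the block 3 of the 15 passed as higher and 1 as lower, beside the same 16.6% and 17.2%.

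Of the 9 polycomb genes that work with E2F6, 2 rose and none fell, where 5.25% and 3.46% of all named genes did. Rnf2, the ubiquitin ligase of the complex, rose by 1.07 ± 0.17 (SE), with signals of 706.4 and 694.4 with AEPS, against 234.2 and 194.8 in control, and an adjusted p of 0.0474 by limma. Mga, the DNA-binding scaffold of the complex, rose by 1.097 ± 0.13, at signals of 93 and 73.8 with AEPS, against 29.5 and 20.8 in control, and an adjusted p of 0.0341. With the model-based background correction the change of Mga was 0.15, with an adjusted p of 0.409. Max, the partner of Mga and the brightest that did not pass, had -0.12. With the block 3 of the 9 passed as higher and none as lower, where 16.6% and 17.2% of all named genes did.

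Of 31 tested G1/S genes that E2F is known to switch on, 3 fell and none rose, where 3.46% and 5.25% of all named genes did. The median log2 change was -0.16 (all genes -0.10). Tk1, thymidine kinase, fell by 1.45 ± 0.14 (SE), with signals of 18176 and 16560.9 with AEPS, against 34595.5 and 26520.6 in control, and an adjusted p of 0.0256 by limma. Cdc6, a loader of the replicative helicase, fell by 1.41 ± 0.14, with an adjusted p of 0.027 by limma. The remaining gene of the 3 that passed was Mcm5, a helicase subunit, at -0.88, with an adjusted p of 0.0465 by limma. Mcm6, another helicase subunit and the brightest that did not pass, had -0.21. Of the 26 genes of this list with a promoter window, 12 had an E2F match (46.2%, against 2.6% of all 27025 genes with a window), and 5 had a window with more than 1. With the block 9 of the 31 genes passed as lower and 1 as higher, where 17.2% and 16.6% of all named genes did. Under spike-in scaling none of the 108 listed partner and target genes passed as lower, with changes of -0.81 for Ccne1, -0.84 for Tk1, -0.80 for Cdc6 and -0.33 for Cdkn2c. With all 4 arrays 9 of the 108 passed. Fits without 1 array leave 1 array in a group, and their calls are not counted.

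Of 24 tested G2/M genes that the DREAM complex of E2F4 and pocket proteins represses in resting cells, none passed without a block. With the block 4 passed as higher and 3 as lower, where 16.6% and 17.2% of all named genes did. By limma on the authors' table, 6 of the 24 passed as higher and 4 as lower, where 41.4% of all named genes passed. Their median log2 change was 0.05, and 6 of the 24 had an unadjusted p under 0.05, as 36.2% of all named genes did. The brightest, Birc5, an inhibitor of cell death that also serves chromosome segregation, had -0.25. Of the 21 genes with a promoter window, 16 (76.2%) had the CHR motif of such genes, searched as TTTGAA or TTCGAA on both strands, against 21.7% of all genes with a window. Of 7 tested DREAM, MuvB and MYB genes none passed without a block, and with it 2 passed as higher and 2 as lower. The brightest, Rbbp4, had -0.38. The unadjusted p was under 0.05 for 4 of these 7.

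Of 7 cell death genes reported as E2F1 targets, 1 rose, where 5.25% of all named genes did. Bcl2l11, which encodes the death-promoting protein BIM, rose by 1.63 ± 0.17 (SE), with signals of 2541.1 and 2555 with AEPS, against 587.8 and 472.5 in control, and an adjusted p of 0.0273 by limma. Bbc3, which encodes PUMA and was the brightest that did not pass, had -0.21. With the block 2 of the 7 passed as higher and none as lower, where 16.6% and 17.2% of all named genes did. The E2F1 gene itself had moved the other way, as given above.

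**Figure D4:**
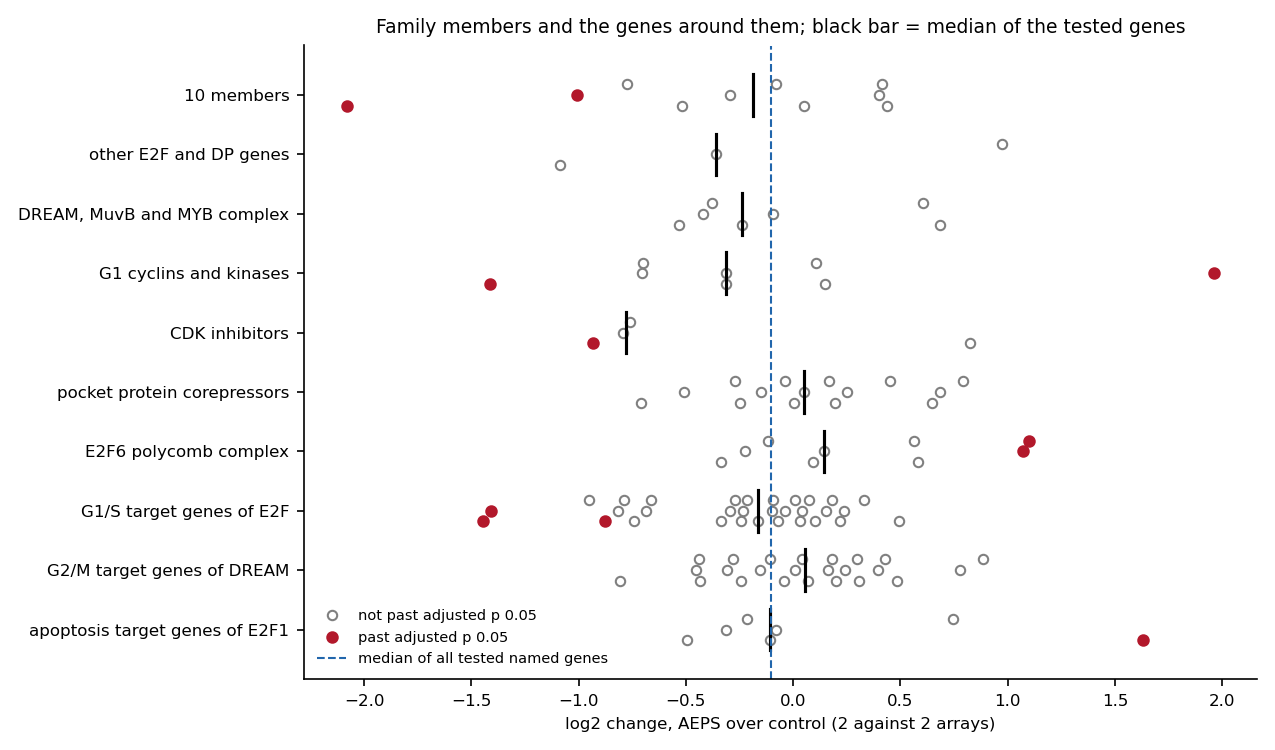
Log2 change, AEPS over control, from the 2 against 2 scanner arrays (x axis) for every tested gene of the family and of the listed partner and target genes (rows); filled red points have an adjusted p under 0.05, black bars are medians and the dashed line is the median of all named genes, -0.10. Red points lie at the low end for the 10 members, the CDK inhibitors and the G1/S genes, at the high end for the E2F6 complex and the cell death genes, and at both ends for the G1 cyclins and kinases.

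Over the 6 values of the authors' table, the named genes whose pattern was most like that of E2f2 were Fbxo21, a component of ubiquitin ligases, with a Pearson r of 0.9999, and Cyb5rl and Erf, each with 0.9998. These correlations over 6 samples in 2 groups rest on the gap between the groups and are given as a description. Fbxo21 had table values of 9.90, 9.91 and 10.04 with AEPS, against 11.40, 11.41 and 11.43 in control. Erf, an ETS family repressor of transcription, had a log2 change of -1.96, with an adjusted p of 0.021 by limma, and Cyb5rl had -0.76 and 0.0602.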

How the data were processed

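Cy3-labelled cRNA made from total RNA was hybridised to 1-colour arrays, per the labels' protocols, and per the submitters' processing notes the scans were read with Agilent Feature Extraction. The deposited scanner files give spot intensity values, of which the processed signal is background-subtracted, per the file headers, with no scaling between arrays. The authors' deposited value table is on a log2 scale, with a median of 4.71 in each column. Its normalization is not given in the sources used. Its replicate 1 columns rank probes as the slide 1 arrays do, its replicate 2 columns as the slide 2 arrays do (Spearman 0.999992 each), and its replicate 3 columns match no scanner file.

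Control spots were left out, spots of a probe were averaged, and log2 signals were set against the 75th percentile of the array. The 30381 probes that were well above background on both arrays of either group were tested, and the brightest tested probe stood for a gene. The AEPS and control arrays were compared in R 4.3.3 with limma 3.58.1, by lmFit and eBayes over all features, with no covariate, at an adjusted p of 0.05. The calculation was tested on simulated data. Their noise was drawn independently for each array with no slide effect, so that test does not cover deviations shared by a slide. Deviations from the group means correlated at 0.38 to 0.58 between same-numbered columns of the table, against -0.50 to 0.24 for its other pairs. Between arrays of 1 slide they correlated at 0.62. Deviations within a group cancel out, so positive values for matched pairs force negative ones among the other pairs. The table and the arrays also share samples. That matched samples deviated alike is thus a description. The block is given where it changes a member's call or the count of a list.

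The members and gene lists were chosen with earlier results of these data known. All 10 members and each of their probes are named. Of each other list, the text names the largest rises and falls that passed (at most 2 each) and the brightest gene that did not. The 3 genes most like the member of largest change were ranked by Pearson r over the table. Mcm5, E2f5 and Tfdp2 fall outside the rule and were named after their values were seen. The alternatives tried were quantile normalization, spike-in scaling, normexp background correction (offset 50), other probe filters, other ways to join probes, the block, the table and each array left out. Use of the table without its replicate 3 columns was added after seeing the data.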

Additional observations from a re-analysis of the deposited data

How the results depend on the processing

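With 2 distinct arrays per group, 2 of 10 members were called, and this count moved with the fit. It was 0 with no filter on dim probes, 7 with the replicate block (3 higher, 4 lower), 5 in the authors' table (1 higher, 4 lower) and 7 in the table with the replicate block (3 higher, 4 lower). Spike-in scaling gave 3 (2 higher, 1 lower). Of all named genes the same fits called 0 of 22763 with no filter, 4933 of 14584 with the block and 6050 of 14605 in the table. They called 8250 of 14605 in the table with the block and 2728 of 14605 under spike-in scaling. Leaving out 1 array left 1 array in a group, so calls are not counted for those fits. The changes there were -1.13 to -0.88 for E2f1 and -2.16 to -2.0 for E2f2. Among 108 tested partner and target genes, 9 were called (4 higher, 5 lower), or 8.33%, against 8.71% of all named genes. The count was 25 under quantile normalization (8 higher, 17 lower), 25 under normexp (8 higher, 17 lower), 20 under spike-in scaling (20 higher, 0 lower), 16 for genes above background on every array (10 lower) and 0 with no filter (0 higher, 0 lower). It was 40 with the replicate block (18 higher, 22 lower), 54 in the table (24 higher, 30 lower), 67 in the table with the block (30 higher, 37 lower) and 22 in the table without its replicate 3 columns (8 higher, 14 lower). With each probe on its own 8 were lower, as were 810 of 19030 named probes. Of 14605 named genes, quantile normalization called 2117, normexp 2928 and the table without its replicate 3 columns 1941. Of 13809 named genes above background on every array, 1595 were called. For the partner and target genes too, calls with 1 array left out are not counted.

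The signs that turned were those of E2f4 (0.52), E2f6 (0.088) and Rbl2 (0.31) under spike-in scaling, and Rbl1 without the control array of slide 1 (-0.025) or the AEPS array of slide 2 (-0.051), in a range of -0.051 to 0.149 over the 4 arrays left out. Over all named genes 1272 were called, against 4933 with the block, 6050 in the table and 2728 under spike-in scaling. With no filter on dim probes the count was 0. Spike-in scaling called 2637 as higher and 91 as lower, where the 75th percentile gave 767 and 505. The cause of these differences was not tested. All member probes were well above background on all arrays.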
